A study of Mus musculus with 5480 samples.

Results

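Of the 18072 genes counted in single mesenchymal cells of the mouse lung, 7 genes of the Sox family were followed: Sox4, Sox11, Sox12, Sox5, Sox6, Sox13 and Sox9. They were taken by name as rows of the table of read counts, and all 7 were found. The study had sorted cells from distal lung and asked how mesenchymal subtypes change around birth and in hyperoxia, the breathing of oxygen-enriched air. Its 10 mice formed 5 groups of 1 female and 1 male. Normal-air mice were taken at embryonic day 18.5 (E18.5) and on days 1, 7 and 21 after birth (P1, P7, P21), and the hyperoxia mice on day 7. Genotype, strain and oxygen level were not given in the sources used here. The submitters had put each of the 5480 cells in 1 of 16 subtypes.

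Sox proteins bind DNA through an HMG box, a domain that bends the double helix, and are grouped by the similarity of that domain. Sox4, Sox11 and Sox12 make up the SoxC group, activators of transcription that are known from embryonic mesenchyme and from immature nerve cells. Sox5, Sox6 and Sox13 make up the SoxD group, which carries no activation domain of its own and works with partner proteins. Sox9 belongs to the SoxE group, and in cartilage it turns on matrix genes together with Sox5 and Sox6. In the lung Sox9 is known from the tips of the growing airway epithelium and from tracheal cartilage.

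Each of the 3 SoxC genes, and no other member, was called lower at P21 than at P7 in at least 1 sum of cells below. None was called lower in all of these sums. The stretch of 250 bases before the start of each is therefore shown, 5′ to 3′, from RefSeq on build GRCm38.p6. Capitals mark CCAAT, a short motif of many promoters, or ATTGG, its reverse complement. Sox4 is at chr13:28953700-28953949 (minus strand), Sox11 at chr12:27342719-27342968 (minus strand) and Sox12 at chr2:152398047-152398296 (minus strand).
Sox4: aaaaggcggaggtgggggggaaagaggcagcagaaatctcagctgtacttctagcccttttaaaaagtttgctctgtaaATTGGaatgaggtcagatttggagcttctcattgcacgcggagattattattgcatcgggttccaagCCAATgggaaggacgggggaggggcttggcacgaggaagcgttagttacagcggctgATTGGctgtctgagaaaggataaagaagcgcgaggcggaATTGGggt
Sox11: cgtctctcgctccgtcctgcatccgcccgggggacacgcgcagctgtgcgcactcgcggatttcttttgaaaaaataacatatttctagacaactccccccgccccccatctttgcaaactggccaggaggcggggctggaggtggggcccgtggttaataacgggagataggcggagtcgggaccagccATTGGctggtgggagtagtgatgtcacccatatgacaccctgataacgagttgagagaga
Sox12: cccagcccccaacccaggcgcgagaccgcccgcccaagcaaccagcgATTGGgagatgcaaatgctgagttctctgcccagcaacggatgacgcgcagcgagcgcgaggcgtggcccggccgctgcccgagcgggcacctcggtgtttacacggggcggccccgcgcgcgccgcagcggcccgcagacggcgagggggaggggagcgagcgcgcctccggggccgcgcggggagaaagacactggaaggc
Sox4 held 4 matches, beginning 171, 104, 47 and 8 bases before the RefSeq start, and Sox11 and Sox12 held 1 each, at 60 and 203 bases. For all 3 genes that start differs from the GENCODE start, the higher coordinate of the gene given below. The stretches of Sox4 and Sox12 overlap the GENCODE genes. In the same stretch of 250 bases, at least 1 match stood in 33.8% of 32851 mouse promoters, and 4 or more in 0.840% of them. The Sox12 stretch was rich in G and C (74.4%), against 58% for Sox11 and 50.8% for Sox4. Promoters of 6 of the 7 members were matched by symbol, all but Sox9. A match describes the letters and no more.

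All 3 SoxC genes lie on the minus strand: Sox4 on chromosome 13 at 28948919 to 28953713, Sox11 on chromosome 12 at 27334264 to 27342574, and Sox12 on chromosome 2 at 152393611 to 152398063 (GENCODE M21, build GRCm38). Sox5 spans chromosome 6 from 143828425 to 144781977 and Sox6 chromosome 7 from 115470872 to 116038796, both on the minus strand. Sox13 lies on chromosome 1 at 133382303 to 133424377 (minus strand) and Sox9 on chromosome 11 at 112782224 to 112787760 (plus strand). An antisense gene, Gm26735, shares 2616 of the 4795 exon bases of Sox4, and Sox5os1 shares 1330 of the 14376 of Sox5. Whether reads were counted by strand is not given in the sources used here, so reads of these pairs cannot be told apart.

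A value here counts sequencing reads, since the labels name no molecular identifiers. The mice held 294154721 to 671766116 reads each, and single cells 39358 to 5177020, with a median of 774305. Levels per subtype are given as CPM, a gene's reads per 1000000 reads summed over the cells of 1 mouse and subtype, wherever a mouse had at least 10 such cells. For shares of cells with a read, 100000 reads were drawn at random from each cell (thinning). The mice were sequenced in 9 runs, and both hyperoxia mice were in runs of their own, so run and hyperoxia cannot be told apart. Of the normal-air mice, the 4 males were sequenced in a common run. The male P21 mouse stood apart in having a median of 1527 genes per thinned cell, against 2342 to 4514.5 in the other 9 mice. Pericytes and both kinds of mature fibroblast were the highest subtypes for their own markers: the 5 pericyte markers summed to a median of 7509 CPM in pericytes and to 1650 CPM in vascular smooth muscle, the next highest. The contractile subtypes were not set apart in this way. The 5 myofibroblast markers, Acta2 and Tagln among them, summed to a median of 14137 CPM in myofibroblasts, below early airway smooth muscle (22220) and vascular smooth muscle (18599). The 5 smooth muscle markers summed to 7363 CPM in mature airway smooth muscle, below myofibroblasts (11140).

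Sox4 was the member with reads in the most cells. After thinning, 54.5% of cells held a Sox4 read, against 21.5% for Sox11, 17.1% for Sox5, 13.7% for Sox12, 8.19% for Sox9, 6.10% for Sox13 and 1.15% for Sox6. Corrected for exon length, as CPM per kilobase of exon (RPKM), the highest subtype mean was 28.4 for Sox4 and 23.5 for Sox11. It was 10.3 RPKM for Sox9, 9.16 for Sox5, 7.88 for Sox13, 4.76 for Sox12 and 0.767 for Sox6. The subtypes had been named from the expression of these same cells, so the differences between subtypes that follow are descriptions with no test.

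**Figure D1:**
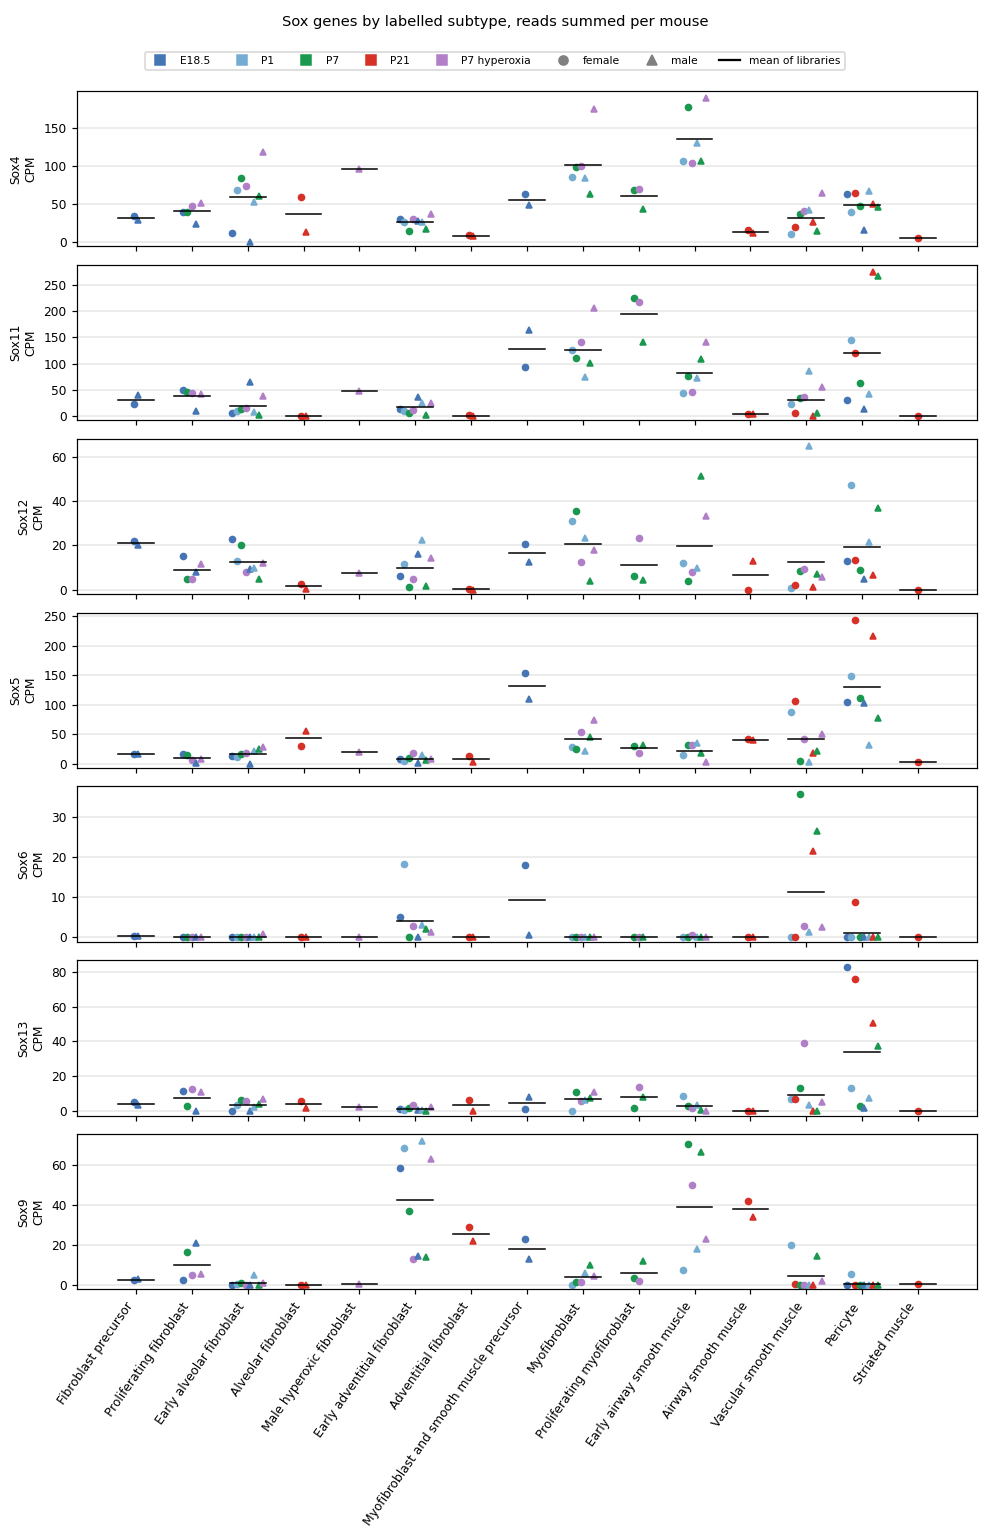
Level of the 7 Sox genes (y axis, CPM of reads summed per mouse, each panel with its own linear axis) in 15 labelled subtypes (x axis). Each point is 1 mouse with at least 10 cells, coloured by group, with circles for females and triangles for males, and the line is the mean of the mice. Sox4 was highest in early airway smooth muscle (mean 136 CPM), Sox11 in proliferating myofibroblasts (195), Sox5 in muscle precursors and pericytes (132 and 130), Sox13 in pericytes (34.0) and Sox9 in adventitial and airway muscle cells.

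Of the SoxC genes, Sox4 was present across the mesenchyme and was highest in young contractile cells. In early airway smooth muscle its lowest, median and highest level over 6 mice was 105, 119 and 190 CPM, and 81.1% ± 12.8 (SD) of thinned cells held a read. In myofibroblasts, the contractile cells that line forming alveoli, it was 64.0, 92.1 and 176 CPM over 6 mice. Within each of the 6 mice that held both, airway smooth muscle was above myofibroblasts. Mature airway smooth muscle, with enough cells in the 2 P21 mice, held 15.6 and 12.1 CPM, below every mouse of the early form. Adventitial fibroblasts, the cells of the loose tissue around airways and vessels, held 9.13 and 7.60 CPM at P21. Neighbours in the order of subtype means mostly lay within their spread: the gap between early airway smooth muscle and myofibroblasts was 34.7 CPM, against an SD of 38.7.

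Sox11 was the most restricted SoxC gene. Proliferating myofibroblasts held 142, 218 and 226 CPM in the 3 mice with enough of these cells, and 76.1% ± 5.77 of them held a read after thinning. The precursors of myofibroblasts and smooth muscle at E18.5 held 93.6 and 164 CPM, and myofibroblasts held 75.3, 118 and 207 CPM as lowest, median and highest of 6 mice. Pericytes, the cells that wrap capillaries, spread widely, from 13.7 to 275 CPM around a median of 91.7 over 8 mice. Only the step from proliferating myofibroblasts to the next subtype exceeded the larger SD among the 5 highest subtypes (gap 66.8 CPM, SD 49.5). Fibroblasts were mostly lower. Early alveolar fibroblasts, the cells around the air sacs, held 1.66, 10.5 and 64.7 CPM as lowest, median and highest of 8 mice. The highest was the male E18.5 mouse. Mature alveolar fibroblasts held 0 and 0.159 CPM at P21. Fibroblast precursors at E18.5 held 23.4 and 39.2 CPM, and proliferating fibroblasts had a mean of 38.2 CPM. Airway smooth muscle was above both alveolar and adventitial fibroblasts in 8 of 8 mice.

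Sox12 was low and broad. Fibroblast precursors at E18.5 held 22.1 and 20.3 CPM, myofibroblasts had a median of 20.8 CPM over 6 mice, and no gap between neighbours among the 14 subtypes with a Sox12 read exceeded the larger SD. Adventitial fibroblasts at P21 were lowest of these, at 0.0678 and 0.537 CPM. Which subtype was highest for Sox12 was not stable: it was the fibroblast precursor in 4 of 14 settings of mice, thinning and cell weight. Across the 64 libraries of a subtype in a mouse, Sox12 was most like Sox11 among all 14019 genes compared (Pearson r of log2(CPM + 1) 0.66), followed by Zfp90 (0.66) and Smap1 (0.65). These libraries share mice, cell types and depth, so the r describes them and no more.

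Of the SoxD genes, Sox5 marked pericytes and the precursors of the contractile cells. Over 8 mice pericytes held 31.1, 109 and 244 CPM as lowest, median and highest, and 43.3% ± 13.8 of thinned cells held a read. The precursors of myofibroblasts and smooth muscle held 153 and 110 CPM at E18.5. The next subtype mean was 43.0 CPM, in alveolar fibroblasts at P21, a gap of 86.6 against an SD of 70.9. Pericytes were above alveolar and above adventitial fibroblasts in 8 of 8 mice and above vascular smooth muscle in 6 of 6.

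Sox13 was also highest in pericytes, but in some mice much of its level came from 1 cell. Its level there over 8 mice was 2.08, 25.3 and 82.4 CPM as lowest, median and highest, and the 2 P21 mice held 76.0 and 50.3 CPM. In the female E18.5 mouse, at 82.4 CPM, 1 of 14 cells gave 50.0% of the reads, and in the male P7 mouse 1 of 31 cells gave 80.1%. At P21 the reads were spread over 36 of 70 cells in the female and 16 of 75 in the male. Pericytes were above adventitial fibroblasts in 8 of 8 mice and above airway smooth muscle in 6 of 6. The next subtype, vascular smooth muscle, was at a mean of 9.47 CPM, a gap of 24.5 that was below the SD of 32.7.

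Sox6 was close to absent. Of its 8240 reads in the whole table, 98.4% lay in 55 cells. Vascular smooth muscle had the highest mean, 11.4 CPM over 8 mice, but a median of 2.82. The 35.9 CPM of the female P7 mouse and the 21.6 CPM of the male P21 mouse each came from 1 cell. A level of Sox6 in a subtype therefore describes a few cells.

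Sox9 was high in adventitial fibroblasts and in airway smooth muscle. Early adventitial fibroblasts held 13.0, 47.7 and 71.9 CPM as lowest, median and highest of 8 mice, and early airway smooth muscle held 7.54, 36.6 and 70.5 CPM over 6 mice. Mature airway smooth muscle held 41.9 and 34.2 CPM and mature adventitial fibroblasts 29.2 and 22.2 CPM at P21. The means of the 3 highest subtypes, 42.5, 39.3 and 38.1 CPM, lay within their spread. Alveolar fibroblasts stood in contrast: mature ones held 0.0793 and 0.0671 CPM, and early ones had a median of 0.284 CPM over 8 mice. Adventitial fibroblasts were above alveolar fibroblasts in 10 of 10 mice, and airway smooth muscle was above them in 8 of 8.

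Because Sox9 is a cartilage gene, the chondrocyte markers Acan and Col2a1 were looked at in the same cells. In adventitial cells of the female E18.5 mouse they summed to 285 CPM, and Sox9 went from 58.3 to 4.23 CPM without the 4 of 26 cells that held a marker read. In the male P1 mouse they summed to 256 CPM and Sox9 went from 71.9 to 37.0 CPM, and in the female P21 mouse to 101 CPM and Sox9 went from 60.0 to 37.9. In the female P7 mouse they summed to 14.9 CPM and Sox9 went from 35.4 to 21.9 CPM. In the other 6 mice the markers summed to at most 3.72 CPM, and Sox9 was at 13.0 to 68.3 CPM with and 13.8 to 74.0 CPM without the cells holding a marker read. In airway smooth muscle they summed to at most 0.0924 CPM in each of 8 mice, and there Sox9 stayed at 7.69 to 68.5 CPM without the cells holding a marker read. The part of chondrocytes in the adventitial Sox9 level was not tested further.

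**Figure D2:**
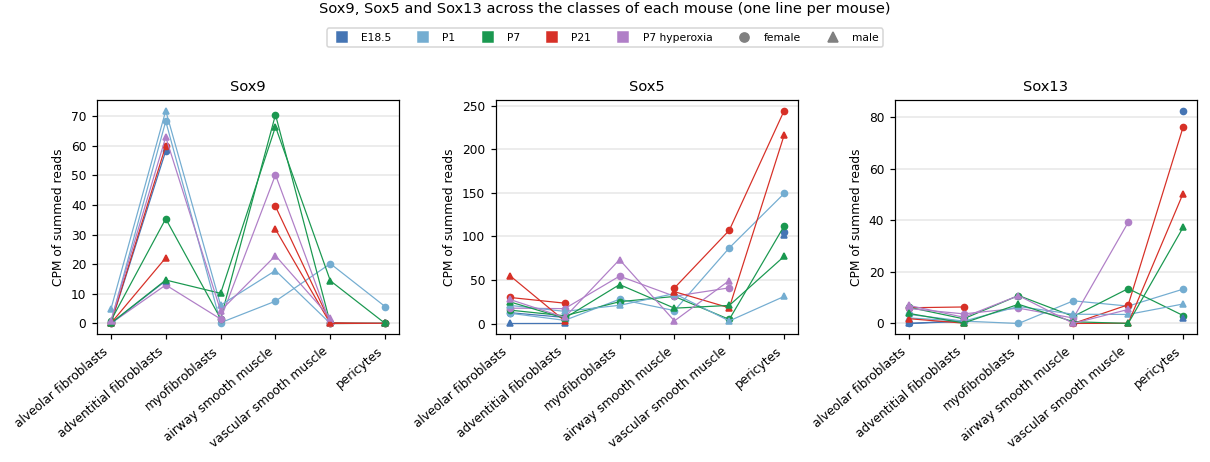
Sox9, Sox5 and Sox13 (y axis, CPM of summed reads) in 6 classes of cells (x axis), with 1 line per mouse, coloured by group, circles for females and triangles for males. Early and mature forms of a type are joined. Sox9 peaked in adventitial fibroblasts and airway smooth muscle and was near 0 in alveolar fibroblasts (at most 4.82 CPM), whereas Sox5 and Sox13 were highest in the pericytes of most mice.

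The question of age was put to reads summed per mouse over all cells and over classes of cells, compared with edgeR's quasi-likelihood test and Benjamini-Hochberg adjustment over all genes. Levels in these comparisons are TMM-scaled CPM, in which library sizes are adjusted so that most genes keep their level. Fits held 6 to 10 libraries, and the p-values measure the spread between mice. In sums over several subtypes, more cells of a subtype and more RNA per cell cannot be told apart. Over 23 contrasts of neighbouring ages, 152 tests of a member were made and 6 passed, against 1.38% of 341911 gene tests. The sums overlap, since the whole mesenchyme holds every class and the contractile cells hold airway smooth muscle. The tests of a member in different sums are therefore not independent. All 6 were among the 53 tests from P7 to P21. In that step the share of all genes that passed ran from 0.0504% in pericytes to 9.97% in the whole mesenchyme. None of the 99 earlier tests passed, where 0.683% of 223763 gene tests did. By DESeq2, 14 of the 152 tests passed, and with cells thinned to 100000 reads 10 did. DESeq2 called more of all genes too, 3595 against 1723 from P7 to P21 in the whole mesenchyme. The count over all genes with cells thinned is not given here.

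**Figure D3:**
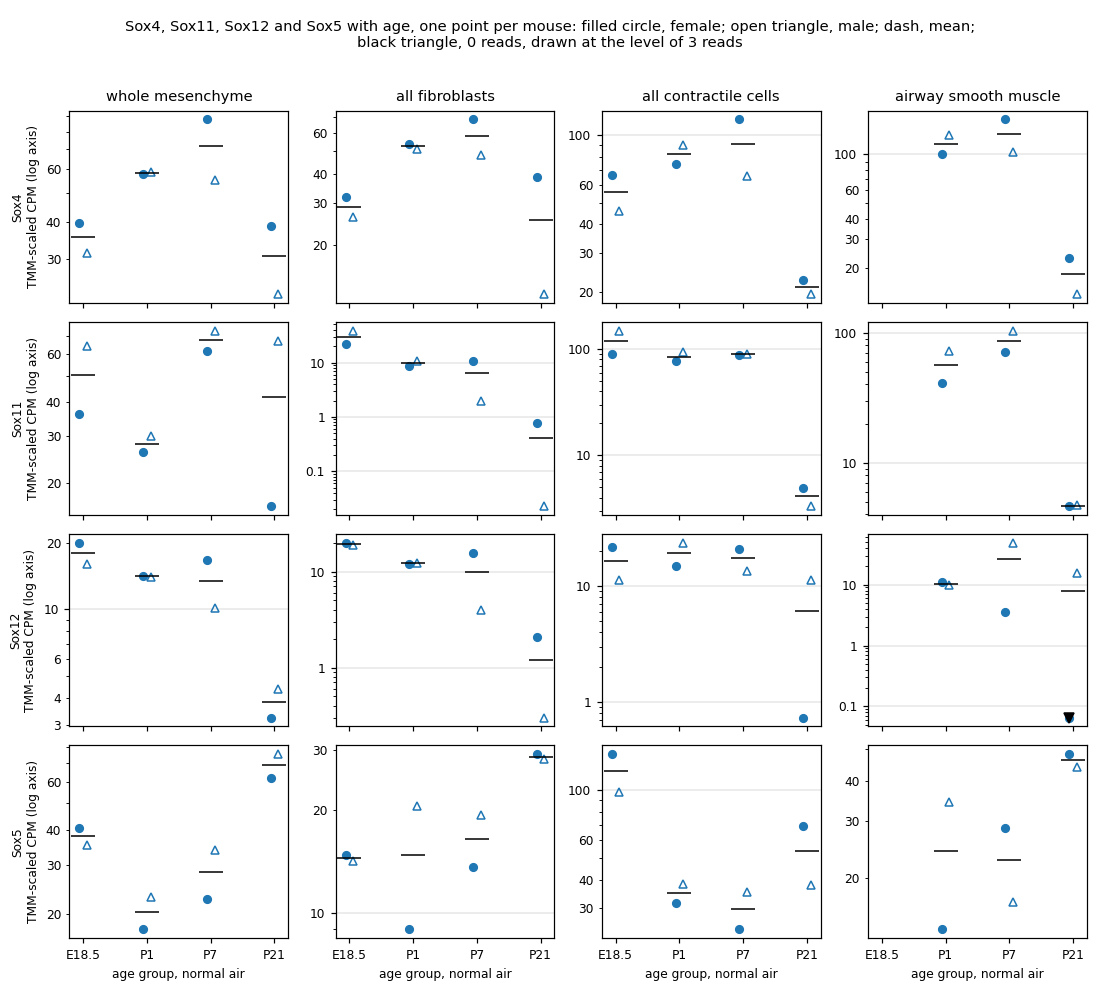
Sox4, Sox11, Sox12 and Sox5 (rows) in 4 sums of cells (columns) at each age in normal air (x axis), as TMM-scaled CPM on log axes that differ between panels. Filled circles are females, open triangles males, dashes the mean of the mice, and a black triangle marks 0 reads, drawn at the level of 3 reads. Sox11 in contractile cells dropped from 87.9 and 90.8 CPM at P7 to 4.88 and 3.33 at P21, and Sox5 in the whole mesenchyme reached its highest values at P21.

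Over the whole mesenchyme, 3 of 7 members passed from P7 to P21, against 9.97% of 17283 genes tested: Sox4 and Sox12 fell and Sox5 rose. The median log2 change was 0.61 over the 7 members and 0.03 over all genes. Across all 4 ages together, 1 of 7 members passed (Sox5, adjusted p = 0.0122, or 0.184 with pericytes left out), against 12.8% of genes.

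Sox4 in the whole mesenchyme was at 39.7 (female) and 31.6 (male) TMM-scaled CPM in the E18.5 mice, at 57.7 and 58.4 in the P1 mice, at 87.8 and 55.3 in the P7 mice and at 38.7 and 22.9 in the P21 mice. Both P21 mice lay below both P7 mice, and the female was the higher at P7 and at P21. The fitted change from P7 to P21 was -1.22 on the log2 scale (SE 0.33), 2.33-fold lower, with adjusted p = 0.0468 (edgeR). This call was narrow. The adjusted p was 0.0740 to 0.0750 without 1 of the E18.5 or P1 mice, 0.251 without the female P7 mouse, 0.120 without the male P7 mouse and 0.176 without the male P21 mouse. With cells thinned it was 0.0912 and by limma with equal weight per cell 0.0529. With pericytes left out, a setting chosen after seeing the data, Sox4 passed (log2 -1.57, adjusted p = 0.0346).

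Sox12 in the whole mesenchyme was at 20.0 and 16.0 TMM-scaled CPM in the E18.5 mice, at 14.1 and 14.0 in the P1 mice, at 16.7 and 10.2 in the P7 mice and at 3.25 and 4.36 in the P21 mice. The P21 mice were below all 6 mice of the earlier ages. The change from P7 was -1.82 on the log2 scale (SE 0.48), 3.54-fold lower, with adjusted p = 0.0410 (edgeR). It passed in 11 of 22 alternatives, and not in a fit of the 4 mice of the contrast alone (0.210). Leaving out any 1 of the 10 mice ended the call, with an adjusted p of 0.0542 to 0.0884 for 8 of them, 0.110 without the female P21 mouse and 0.219 without the female P7 mouse. With pericytes left out it passed (log2 -2.29, adjusted p = 0.0327).

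Sox5 in the whole mesenchyme was at 40.9 and 35.5 TMM-scaled CPM in the E18.5 mice, at 17.6 and 23.1 in the P1 mice, at 22.6 and 33.9 in the P7 mice and at 61.8 and 75.3 in the P21 mice. The P21 mice were above all others, the E18.5 mice came next, and P1 and P7 overlapped. The rise from P7 to P21 was 1.29 on the log2 scale (SE 0.29), 2.45-fold, with adjusted p = 0.0240 (edgeR). It did not pass without the female P7 mouse (0.151) or without the male P7 mouse (0.0965). The share of cells that were pericytes, the subtype with high Sox5, went from 4.29% and 5.44% at P7 to 13.4% and 24.1% at P21. In the P21 mice 49.3% and 69.5% of all Sox5 reads lay in pericytes. With pericytes left out the difference was 0.52 on the log2 scale (SE 0.36) and did not pass (adjusted p = 0.390). Within pericytes themselves Sox5 was at 115 and 74.5 TMM-scaled CPM at P7 and at 240 and 231 at P21, a difference of 1.38 on the log2 scale (SE 0.81) that did not pass (adjusted p = 0.956).

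Sox13, the other SoxD gene with high levels in pericytes, was at 7.45 and 5.92 TMM-scaled CPM in the whole mesenchyme at P7 and at 14.6 and 12.7 at P21. Both P21 mice were above the other mice in normal air, but the difference of 1.04 on the log2 scale (SE 0.53) did not pass (adjusted p = 0.248, edgeR). In the P21 mice 64.9% and 95.9% of the Sox13 reads lay in pericytes, and with pericytes left out the difference was -0.96 (SE 0.88, adjusted p = 0.537).

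Sox11 in the whole mesenchyme was at 36.1 and 64.4 TMM-scaled CPM in the E18.5 mice, at 26.1 and 29.9 in the P1 mice, at 61.9 and 73.3 in the P7 mice and at 16.4 and 67.3 in the P21 mice. The male P21 mouse stayed within the range of the P7 and E18.5 mice, and the difference from P7 of -0.90 on the log2 scale (SE 0.42) did not pass (adjusted p = 0.209, edgeR). Nearly all Sox11 reads at P21 lay in pericytes, proliferating ones included: 91.9% of the female's and 98.9% of the male's, against 6.03% and 18.2% at P7. Outside pericytes Sox11 was at 62.8 and 65.6 CPM at P7 and at 1.39 and 0.820 CPM at P21. With pericytes left out, a setting chosen after seeing the data, Sox11 fell by 5.55 on the log2 scale (SE 0.43), 46.8-fold, with adjusted p = 0.000191 (edgeR), where 9.88% of 17244 genes passed.

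Of the 6 changes that passed, Sox11 in contractile cells had the lowest adjusted p. In the sum of muscle precursors, myofibroblasts, airway and vascular smooth muscle, 2 of 7 members passed from P7 to P21, Sox4 and Sox11, and both fell. Of 15351 genes tested in these cells, 3.62% passed and 1.77% fell. Sox11 was at 90.1 and 148 TMM-scaled CPM in the E18.5 mice, at 76.7 and 93.4 in the P1 mice, at 87.9 and 90.8 in the P7 mice and at 4.88 and 3.33 in the P21 mice. The 6 younger mice overlapped across ages, and both P21 mice lay far below them. The change from P7 was -4.42 on the log2 scale (SE 0.46), 21.4-fold lower, with adjusted p = 0.00124 (edgeR). It passed in 21 of 21 alternatives, with log2 changes from -5.02 to -3.14, and the test across all 4 ages passed too (adjusted p = 0.00212, where 5.37% of genes did). In the males, which shared a run, the 2 values alone differed by 27.3-fold, and in the females by 18.0-fold.

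Sox4 in contractile cells was at 66.0 and 45.9 TMM-scaled CPM in the E18.5 mice, at 74.2 and 90.0 in the P1 mice, at 117 and 65.7 in the P7 mice and at 22.6 and 19.6 in the P21 mice. The P21 mice were again the lowest. The change from P7 was -2.10 (log2, SE 0.45), 4.30-fold lower, with adjusted p = 0.0323 (edgeR). It did not pass without the female P1 (0.0551), male P1 (0.0568), female P7 (0.257), male P7 (0.0819) or male P21 mouse (0.0695), or in the mice of the contrast alone (0.187).

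The makeup of these cells differs with age, since myofibroblasts, which hold much Sox11 and Sox4, were labelled at P7 (155 and 184 cells) and not in the P21 mice. Muscle precursors were mostly E18.5 cells, with 1 cell at P7 in normal air, in the female. With both left out, a setting chosen after seeing the data, Sox11 still fell by 4.02 (log2, SE 0.68, adjusted p = 0.0223), where 1.28% of 14305 genes passed, and Sox4 differed by -2.38 (SE 0.51) and did not pass (adjusted p = 0.0647). Airway smooth muscle was present at both ages. There Sox11 was at 70.4 and 103 TMM-scaled CPM at P7 and at 4.64 and 4.70 at P21. Here 1 of 6 tested members passed, against 1.13% of 13496 genes, and the change was -4.14 (log2, SE 0.69), 17.7-fold lower, with adjusted p = 0.0238 (edgeR). It did not pass without the female P7 (0.160), male P7 (0.113), male P21 (0.0964) or male hyperoxia mouse (0.0640), or in the mice of the contrast alone (0.138). Across P1, P7 and P21, Sox11 also passed (adjusted p = 0.0484, against 1.33% of genes), and this was lost without any 1 of the 8 mice (0.0633 to 0.200) and with RLE size factors (0.0507). Sox4 in airway smooth muscle was at 164 and 103 TMM-scaled CPM at P7 and at 22.8 and 13.7 at P21, a difference of -2.87 on the log2 scale (SE 0.57) that did not pass (adjusted p = 0.0550).

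**Figure D4:**
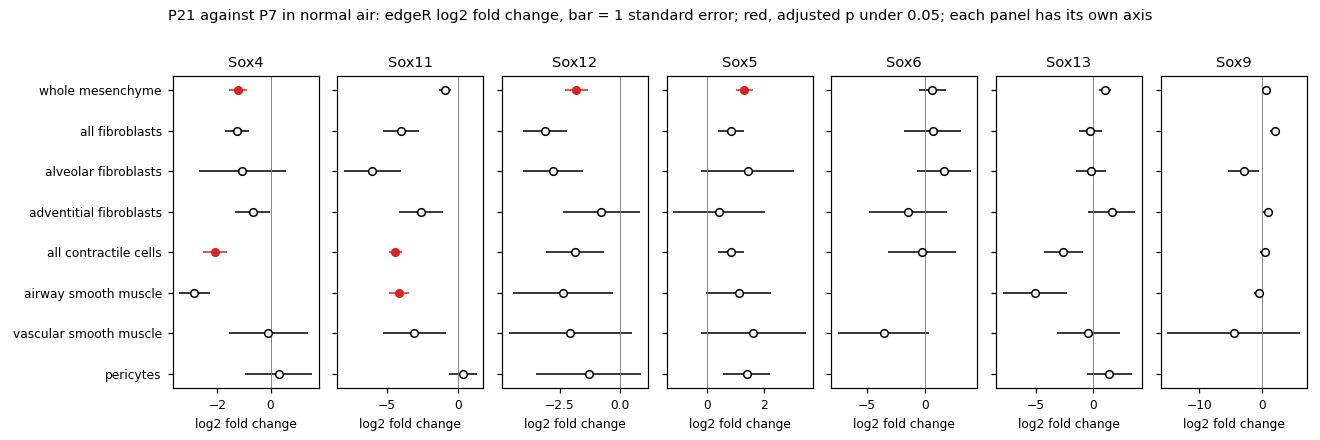
Change of each Sox gene from P7 to P21 in normal air (x axis, edgeR log2 fold change, with bars of 1 standard error and an axis of its own per panel) in 8 sums of cells (y axis). Red points passed at an adjusted p under 0.05: Sox4 (-1.22) and Sox12 (-1.82) and Sox5 (1.29) in the whole mesenchyme, Sox4 (-2.10) and Sox11 (-4.42) in contractile cells, and Sox11 (-4.14) in airway smooth muscle.

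In all fibroblasts 0 of 7 members passed from P7 to P21, against 4.17% of 16748 genes, although 4 had an unadjusted p under 0.05. Sox11 was at 10.7 and 1.96 TMM-scaled CPM at P7 and at 0.790 and 0.0231 at P21 (log2 -4.01, SE 1.29, adjusted p = 0.111, edgeR). Sox12 was at 15.6 and 3.98 at P7 and at 2.08 and 0.301 at P21 (log2 -3.10, SE 0.91, adjusted p = 0.0880). For both genes each P21 mouse lay below each P7 mouse, and the P7 mice differed from each other by several-fold. Sox9 was at 7.97 and 4.63 TMM-scaled CPM at P7 and at 33.8 and 17.7 at P21 (log2 2.03, SE 0.78, adjusted p = 0.168). The share of adventitial fibroblasts, the fibroblasts with Sox9, went from 8.25% and 9.82% of all cells at P7 to 30.7% and 27.7% at P21. Within adventitial fibroblasts Sox9 was at 36.1 and 15.3 TMM-scaled CPM at P7 and 65.9 and 27.3 at P21. Without the cells holding an Acan or Col2a1 read it was at 21.9 and 13.8 CPM at P7 and 37.9 and 19.8 CPM at P21, not TMM-scaled. Cells with the mature label alone held 29.2 and 22.2 CPM of Sox9 at P21, against 35.4 and 14.7 CPM for the class at P7. In the female P21 mouse both labels together held 60.0 CPM, although fewer than 10 of these cells had the early label. Her higher level at P21 therefore rested on a few cells.

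Tested alone, alveolar fibroblasts (0.0702% of 15670 genes passed), adventitial fibroblasts (0.124% of 15289) and vascular smooth muscle (0.0886% of 12417) gave 0 of 7 members passing each from P7 to P21. Sox11 in alveolar fibroblasts was at 11.7 and 1.64 TMM-scaled CPM at P7 and at 0.173 and 0.0214 at P21 (log2 -6.02, SE 2.00, adjusted p = 0.593, edgeR). Sox5 there was at 14.5 and 24.6 and at 32.8 and 71.6 (log2 1.41, SE 1.62, adjusted p = 0.927). In vascular smooth muscle Sox11 was at 32.2 and 5.83 at P7 and at 5.36 and 0 at P21 (log2 -3.07, SE 2.21, adjusted p = 0.790). The P21 mice were the lower for Sox11 in both classes, and the standard errors of these sums were wide.

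In pericytes Sox4 and Sox11 were not lower at P21 than at P7 in either sex. Sox11 was at 64.0 and 258 TMM-scaled CPM in the P7 pericytes and at 119 and 293 in the P21 pericytes, and Sox4 at 49.1 and 45.2 and at 63.5 and 53.7. In pericytes 0 of 5 tested members passed from P7 to P21, against 0.0504% of 11894 genes. Whether the change from P7 to P21 differed between 5 classes was tested with the mouse as a block. In that test 0 of 7 members passed (Sox4 p = 0.0675 and Sox11 p = 0.165 unadjusted, adjusted p = 0.757 and 0.818), against 0.199% of 15616 genes, so a difference between pericytes and airway smooth muscle is not shown. By DESeq2, and by limma with equal weight per cell, Sox4 did pass in it.

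Between E18.5 and P1, Sox5 in contractile cells was at 144 and 98.0 TMM-scaled CPM at E18.5 and at 31.8 and 38.3 at P1 (log2 -1.78, SE 0.46, adjusted p = 0.148, edgeR), where 0.834% of genes passed. Muscle precursors, the cells with the most Sox5, made up 16.1% of the cells of the female mouse at E18.5 and 1.11% at P1. In the whole mesenchyme Sox9 was at 8.45 and 6.07 TMM-scaled CPM at E18.5 and at 17.2 and 13.8 at P1 (log2 1.10, SE 0.48, adjusted p = 0.389).

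The question of hyperoxia was put to the 2 mice kept in it to P7 and the 2 P7 mice in normal air, in the whole mesenchyme and in 5 classes. No difference of a Sox gene passed: of 40 tests 0 passed and 0 had an unadjusted p under 0.05, and the lowest adjusted p was 0.697 (edgeR). Of all genes, 0.243% of 17283 passed in the whole mesenchyme and 0% in alveolar fibroblasts, adventitial fibroblasts, myofibroblasts, airway smooth muscle and vascular smooth muscle. By DESeq2 the count of members was 0 as well, while 790 genes passed in the whole mesenchyme. In the 5 classes, in the order just given, DESeq2 called 241, 389, 376, 129 and 215 genes. In 13 of the 40 tests the hyperoxia mice did not overlap the mice in normal air, against 43.1% of the tests of all genes in the same 6 sums. Only 5 and 3 pericytes came from the hyperoxia mice, too few to be tested. Whether the hyperoxia difference varied between the 5 classes was tested with the mouse as a block, and 0 of 7 members passed, against 0.106% of 16008 genes.

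In the whole mesenchyme Sox4 was at 87.8 (female) and 55.3 (male) TMM-scaled CPM in normal air and at 64.7 and 92.4 in hyperoxia. The groups overlapped, with hyperoxia the lower in females and the higher in males. Sox11 was at 61.9 and 73.3 in normal air and at 42.9 and 59.9 in hyperoxia, a difference of -0.43 on the log2 scale (SE 0.41, adjusted p = 0.707, edgeR).

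In adventitial fibroblasts 4 of 7 members, the 3 SoxC genes and Sox13, were higher in both hyperoxia mice than in both mice in normal air, as were 26.5% of 15289 genes, and none of the 4 differences passed. Sox12 was at 1.19 and 1.96 TMM-scaled CPM in normal air and at 4.51 and 13.1 in hyperoxia (log2 2.42, SE 1.57, adjusted p = 0.697, edgeR). Sox11 was at 5.74 and 2.67 and at 9.89 and 23.7 (log2 2.00, SE 1.56, adjusted p = 0.756). Sox4 was at 18.9 and 18.3 and at 27.6 and 33.9 (log2 0.73, SE 0.67, adjusted p = 0.796). Sox13 was at 1.85 and 0.203 and at 3.34 and 2.24. In the same cells the 6 endothelial markers summed to 2.69 and 5.60 CPM in normal air, with 5 of 6 below 1 CPM in each mouse, and to 33.8 and 99.2 CPM in hyperoxia, with none below. The 3 mesothelial markers summed to 201 CPM (female) and 0.0324 CPM (male) in normal air and to 560 and 618 CPM in hyperoxia. The part of such cells in the Sox values was not tested.

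In myofibroblasts Sox11 was at 111 and 102 TMM-scaled CPM in normal air and at 135 and 204 in hyperoxia (log2 0.68, SE 0.39, adjusted p = 0.844, edgeR), and Sox5 at 25.1 and 44.5 and at 52.3 and 72.3. Both hyperoxia mice were the higher for both genes, as for 23.1% of all genes tested there. In airway smooth muscle Sox9 was at 64.7 and 63.4 in normal air and at 44.3 and 22.3 in hyperoxia (log2 -0.95, SE 0.80, adjusted p = 1), with both hyperoxia mice the lower, as for 19.9% of all genes tested there. Thinned cells of the hyperoxia mice held a median of 3796 and 4514.5 genes, above the 2447 and 2342 of the P7 mice in normal air. What this depth of detection has to do with these values was not tested.

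The male hyperoxia mouse alone held a subtype that the submitters named male hyperoxic fibroblast, with 55 cells. Its Sox4 level was 96.8 CPM and 94.5% of its thinned cells held a Sox4 read (95% Wilson interval 85.1% to 98.1%), while Sox11 was at 47.8 and Sox12 at 7.72 CPM. The early alveolar fibroblasts of the same mouse held 119 CPM of Sox4, with a read in 92.9% of thinned cells, and its myofibroblasts 176 CPM. The CPM of Sox4 in the hyperoxic fibroblast was below that of these cells, and below every mouse in early airway smooth muscle (lowest 105 CPM). It was above every mouse in early adventitial fibroblasts (highest 36.6 CPM), proliferating fibroblasts (51.3) and vascular smooth muscle (64.5). The interval covers counting error only.

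**Figure D5:**
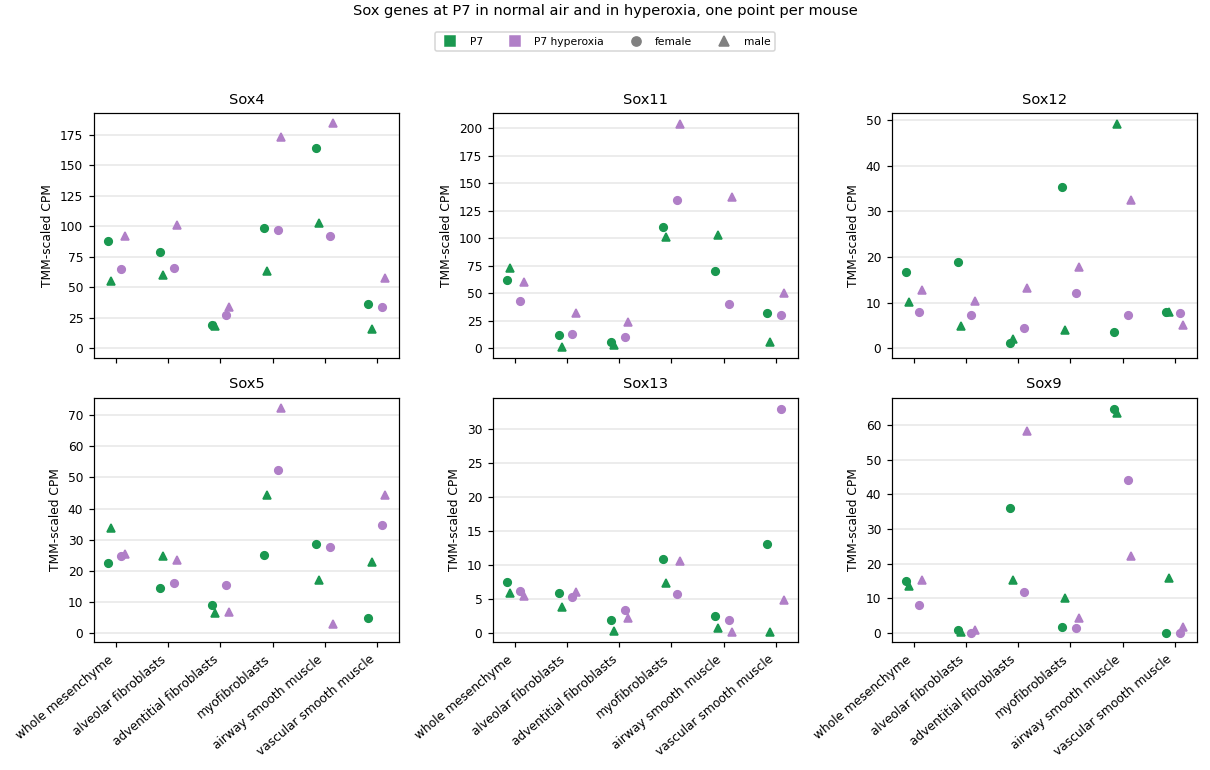
Sox4, Sox11, Sox12, Sox5, Sox13 and Sox9 (panels) at P7 in normal air (green) and in hyperoxia (purple) in 6 sums of cells (x axis), as TMM-scaled CPM (y axis). Each point is 1 mouse, with circles for females and triangles for males. For Sox12 in adventitial fibroblasts the 2 hyperoxia mice (4.51 and 13.1) sit above the 2 mice in normal air (1.19 and 1.96), while Sox4 in the whole mesenchyme overlaps between the groups.

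Genes reported elsewhere as direct targets of SOX4 or SOX11 (Tead2, Tubb3, Dcx and Ezh2) were followed from P7 to P21. In the whole mesenchyme 3 of the 4 fell, where 4.58% of all genes fell, and their median log2 change was -2.37 against 0.03 for all genes. Tead2, which encodes a partner of the YAP coactivator, went from a mean of 47.7 to 8.67 TMM-scaled CPM (log2 -2.47, SE 0.32, adjusted p = 0.00163, edgeR). Ezh2, the histone methyltransferase of the Polycomb system, went from 70.4 to 14.5 (log2 -2.27, SE 0.30, adjusted p = 0.00163). Dcx, a microtubule protein of young neurons, also passed but was below 10 CPM at both ages. In fibroblasts, where no SoxC gene passed, the same 3 fell, against 1.68% of genes: Tead2 by 2.16, Ezh2 by 1.73 and Dcx by 5.82 on the log2 scale. In contractile cells Tead2 alone fell, by 2.79 on the log2 scale (SE 0.51, adjusted p = 0.0179), from a mean of 55.1 to 7.99 TMM-scaled CPM.

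Cell division changed over the same step. Of 12 listed cell division genes, 9 fell in the whole mesenchyme, where 4.58% of all genes did, 2 in fibroblasts, where 1.68% did, and 4 in contractile cells, where 1.77% did. Summed over the whole mesenchyme they were at 838 and 1074 CPM at P7 and at 13.6 and 21.8 CPM at P21. With the subtypes labelled as proliferating left out of the whole mesenchyme, Sox4 (log2 -1.30, adjusted p = 0.0455) and Sox12 (log2 -1.97, adjusted p = 0.0385, edgeR) passed. The sum of contractile cells held no subtype labelled as proliferating. The part of dividing cells within the other subtypes was not tested.

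Cartilage matrix genes, which SOX9, SOX5 and SOX6 drive together in cartilage, made a list of 16 genes with 14 in the table. From P7 to P21 0 of the 14 passed in the whole mesenchyme or in fibroblasts, and 0 of 10 tested in contractile cells. Their median log2 difference was 2.69 in the whole mesenchyme and -4.26 in contractile cells. In the whole mesenchyme the 14 genes summed to 60.9 (female) and 39.8 (male) CPM at P7. At P21 they summed to 405 CPM in the female and 34.3 CPM in the male, so only the female was higher. No common direction is drawn from these medians.

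Of 13 other Sox genes looked for, 7 were in the table and most were near absent. Sox7, of the SoxF group known from endothelium, rose from a mean of 0.390 to 6.87 TMM-scaled CPM from P7 to P21 in the whole mesenchyme (log2 4.37, SE 0.99, adjusted p = 0.0230, edgeR), the 1 of 6 tested that passed. The 6 endothelial markers summed to 5.13 and 7.10 CPM at P7 and to 18.6 and 15.2 CPM at P21 in the same sums, and their part in the Sox7 rise was not tested. In single libraries Sox7 reached 29.5 CPM in vascular smooth muscle, Sox17 34.0 CPM in pericytes, Sox18 11.2 CPM and Sox8 7.41 CPM in early adventitial fibroblasts, and Sox30 29.1 CPM and Sox15 2.75 CPM in vascular smooth muscle. Sox10, the glial member, stayed at or below 0.0770 CPM in all 64 libraries of a subtype in a mouse.

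For each member the genes of most similar level were found by Pearson r of log2(CPM + 1) over the same 64 libraries, among 14019 genes. Sox4 was most like Bax (r 0.78), a gene of programmed cell death, then Zfp362 (0.74) and Bop1 (0.72). Sox11 was most like Hoxb2 (0.76), Klhl23 (0.72) and St6galnac3 (0.71). Sox5 was most like the adhesion receptor gene Adgrg6 (0.74), then Arap2 (0.74) and Adgre5 (0.70), and Sox9 most like Mpped2 (0.74), Lhfpl2 (0.72) and Flnc (0.71). Sox13 (Sipa1l2 0.61, Dcbld1 0.61, Pag1 0.60) and Sox6 (Traj11 0.64, Trac 0.61, Angptl1 0.61) had weaker neighbours. Among the members themselves, Sox5 and Sox13 were alike at r = 0.53, Sox4 and Sox11 at 0.53, and Sox9 and Sox13 ran opposite at -0.39.

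Sox4 and Sox11 were often found in the same cells. After thinning, 781 of the 1141 cells with a Sox11 read (68.4%) also held a Sox4 read, against 54.5% of all cells. Within airway smooth muscle it was 84.5% of the Sox11 cells, against 61.2% of all cells of the class, and within pericytes 52.4%, against 46.2%. Cells share a mouse and differ in detection, so these shares are descriptions.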

How the data were processed

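Single cells of sorted mouse lung mesenchyme had been sequenced in plates. The authors deposited whole-number read counts per gene and cell and their own subtype labels. The submitters' processing notes name STAR 2.5.2b, HTSeq 0.10 and GRCh38, a human build; the mouse build is not given in the sources used here. Counts were summed per mouse and subtype or class with at least 10 cells, and the mouse was the replicate. Age and hyperoxia were tested with edgeR 4.0.16 (R 4.3.3): quasi-likelihood test, TMM scaling, filterByExpr, terms for group and sex, two-sided, Benjamini-Hochberg over all genes, threshold 0.05. The standard error is the log2 fold change divided by the square root of F. All groups shared a fit. DESeq2 1.42.0 and limma 3.58.1 on log2(mean CPM + 1) were alternatives. Shares of cells used 100000 randomly drawn reads per cell, without 168 shallower cells. The 71 cells from other sorts were kept, and no doublet caller was run. Exon lengths came from GENCODE M21, where 99.7% of symbols matched. Lengths and counts may rest on different builds. The text names the members, for each member the 3 most similar genes, other Sox genes at 1 CPM or more in a library, and up to 3 genes per list that passed with the largest change and at least 10 CPM. The members and lists were chosen with earlier results of these data known. The method was tested on simulated data.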

Additional observations from a re-analysis of the deposited data

How the results depend on the processing

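No called change of a Sox gene reversed under any of 11 other settings, 2 settings chosen after seeing the data or 10 leave-one-out fits, and 266 of 3610 values that had not passed changed sign. The counts of members that passed did move. Across all ages, the count in the whole mesenchyme (1) was 5 by DESeq2, 2 without the sex term, 3 with cells thinned, 2 by limma with equal weight per cell and 2 with pericytes left out. In fibroblasts (0) it was 3 by DESeq2, 1 thinned and 2 by limma. In contractile cells (1) it was 3 by DESeq2, 3 without the sex term, 2 thinned and 3 by limma. In alveolar fibroblasts (0) it was 3 by DESeq2, 3 thinned and 1 by limma, and it also moved in fits that left 1 E18.5 mouse. In airway smooth muscle (1) it was 2 by DESeq2, thinned and by limma, and 0 with RLE size factors, with cells of the main run and sort, or with the male hyperoxia mouse by its first plate. Over neighbouring ages (6) it was 14 by DESeq2, 10 thinned and 3 with the mice of the contrast alone. The P7 to P21 interaction (0) gave 1 by DESeq2 and 1 by limma, Sox4 both times. Counts over all genes moved as well. Across all ages, DESeq2 called 4786 genes in the whole mesenchyme against 2210 in the main fit, and 3690 against 1159 in fibroblasts. It called 2954 against 824 in contractile cells, 3902 against 54 in alveolar fibroblasts and 1080 against 179 in airway smooth muscle. In the P7 to P21 interaction it called 947 against 31. For the other settings and the leave-one-out fits, no count over all genes is set beside these member counts. A member count there cannot be read as particular to the Sox genes. The cause of these moves was not tested.

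Leaving out each mouse in turn gave 1 to 3 in the whole mesenchyme, 0 to 3 in fibroblasts and in alveolar fibroblasts, 1 to 2 in contractile cells, 0 to 1 in myofibroblasts, 0 in airway smooth muscle and 1 to 9 over neighbouring ages. It gave 0 in the other classes, in hyperoxia and in both interactions. The subtype of highest mean stayed the same for 4 to 7 of the 7 members.

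The labels give the mice no replicate numbers, so mice were matched between groups by sex alone, as a term of the fit. With 2 mice per group, 1 of each sex, most standard errors were wide, and a level under 1 CPM rested on few reads in few cells.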
